A study of Mus musculus with 2 samples.

Results

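The constitutive proteasome genes, with the activators that dock on the proteasome, were compared between haematopoietic stem and progenitor cells of adult bone marrow and of fetal liver. Members were the genes whose symbol starts with Psma, Psmb, Psmc, Psmd, Psme, Psmf or Psmg and a digit, without the immunoproteasome genes Psmb8, Psmb9 and Psmb10. They were 47 of 20655 named genes, read by 58 of 55664 probes. Of these 47, 45 were well above background on both arrays, 1 (Psma8) on the bone marrow array alone and 1 (Psmb11) on neither. A further 7 symbols of that pattern, pseudogenes and Psme2b, have no probe here. The name pattern also took Psmc3ip, a meiotic recombination factor, and Psme3ip1, a binding partner of the activator Psme3. These 2 are not proteasome subunits and were kept apart as other genes.

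The cells were lineage-negative, Sca-1-positive and c-Kit-positive (LSK) cells, a sorted population in which blood stem cells and multipotent progenitors are found. Bone marrow cells came from mice at 8 weeks and fetal liver cells from embryos at E14.5, both wild type and not transplanted, with the strain C57BL/6 given for bone marrow. Each group was a single one-colour array from 20 ng of total RNA of freshly sorted cells, so nothing here has a replicate check and no test between groups was possible. Tissue, age and slide differ together and cannot be told apart.

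The proteasome degrades proteins that carry ubiquitin chains. Its core particle is a barrel of alpha and beta rings with the catalytic sites inside, and its regulatory particle is built from a base of ATPases that unfold the substrate and a lid that removes the ubiquitin. In blood and immune cells interferon replaces the constitutive catalytic subunits by those of the immunoproteasome and raises the activator PA28, a ring of Psme1 and Psme2 proteins. Transcription of the subunit genes as a set is known to be controlled by the factor Nfe2l1 through antioxidant response elements.

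Values are log2 processed signal after each array was set to its 75th percentile, and a difference is fetal liver minus bone marrow. Errors after ± come from the image analysis software, are technical and hold no biological spread. Differences were also computed after scaling by the E1A spike-in RNAs, which were mixed into the RNA of each sample. Spike-in scaling lowered every difference between measured signals by 0.39, and it moved the median of all 13385 measured genes from 0.11 to -0.28. Of 10 spike-in probes 8 were above background on both arrays. The dimmest of these stood apart at an unscaled difference of 0.36, against a mean of -0.03 (SD 0.17) over the 8, and with the median in place of the mean the shift was -0.33. A difference that is positive on the percentile scale can therefore be negative on the spike-in scale, and for the brightest probe of each gene both values are stated where the sign turns.

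Promoter sequence is shown for the largest differences among the regulatory particle (Psmc6), the core (Psmb5) and the assembly chaperones (Psmg3), and for Psme1, the activator gene with the lowest, a choice made after the values were seen. The stretches are the 250 bases before the RefSeq start site, 5′ to 3′ on the gene's strand, in build GRCm38.p6. They lie at chr14:45329574-45329823 (plus strand) for Psmc6, chr14:54617996-54618245 (minus strand) for Psmb5, chr5:139826895-139827144 (minus strand) for Psmg3 and chr14:55578244-55578493 (plus strand) for Psme1. Capitals mark the letters of the antioxidant response element core, TGACNNNGC, on either strand.
Psmc6: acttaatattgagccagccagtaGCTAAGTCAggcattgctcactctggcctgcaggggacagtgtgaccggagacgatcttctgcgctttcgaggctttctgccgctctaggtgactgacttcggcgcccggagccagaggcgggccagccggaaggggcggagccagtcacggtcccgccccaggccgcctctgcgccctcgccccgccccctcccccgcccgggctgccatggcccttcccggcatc
Psmb5: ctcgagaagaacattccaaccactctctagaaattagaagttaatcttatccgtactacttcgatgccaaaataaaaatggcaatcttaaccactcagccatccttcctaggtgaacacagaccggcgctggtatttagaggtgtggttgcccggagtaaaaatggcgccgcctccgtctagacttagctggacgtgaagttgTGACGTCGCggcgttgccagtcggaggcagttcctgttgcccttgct
Psmg3: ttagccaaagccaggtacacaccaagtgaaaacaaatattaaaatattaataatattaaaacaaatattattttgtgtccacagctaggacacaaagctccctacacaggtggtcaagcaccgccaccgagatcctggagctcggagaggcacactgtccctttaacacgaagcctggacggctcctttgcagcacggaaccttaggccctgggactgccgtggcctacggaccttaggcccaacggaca
Psme1: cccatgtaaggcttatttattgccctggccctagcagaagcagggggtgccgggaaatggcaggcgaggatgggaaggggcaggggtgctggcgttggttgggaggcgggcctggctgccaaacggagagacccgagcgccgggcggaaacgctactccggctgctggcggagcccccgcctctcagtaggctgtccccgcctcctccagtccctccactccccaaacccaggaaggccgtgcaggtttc

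The element core began 47 bases before the start site of Psmb5 and 227 bases before that of Psmc6, and in neither of the other 2 stretches. RefSeq windows were at hand for 39 of the 47 member genes, 43 windows in all. The letters TGACNNNGC stood in 5 of the 43 (11.6%), those of Psmb5, Psmb6, Psmc6, Psmd12 and Psmd9, against 10.2% of all 32851 windows. The CCAAT box stood in 34.9% of member windows and 33.8% of all windows. A shortened interferon-stimulated response element, GAAANNGAA, stood in 3 member windows (6.98%, against 7.13% of all), and the gamma-activated site, TTCNNNGAA, in 1 (2.33%, against 7.02%). The interferon element was first searched with a further A at its 3′ end, which stood in 3 member windows (6.98%) and in 2.98% of all windows. The shortened form was adopted after that result was seen, and the share of all windows rests on this choice, so no reading is drawn from either form. These motifs, which do not contain each other, were searched on both strands, none was found in the stretches of Psmg3 and Psme1, and a match describes letters, not binding.

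Core and regulatory particle genes were modestly higher in fetal liver on the percentile scale and level with bone marrow on the spike-in scale. Of the 31 that were measured on both arrays, 30 had positive differences, where 57.8% of all measured genes were positive. Of these 30, 25 were larger than the technical error. By the spike-ins 15 of the 31 were positive, against 28.7% of all genes, with 4 above and 6 below zero by more than the error. The shares of all genes past the error are not given here, so no reading is drawn from the counts past it. Without scaling, 11 of the 31 signals were higher on the fetal liver array. None of these 31 reached 2-fold, a size passed by 6.73% of all genes toward fetal liver and 8.17% toward bone marrow. By the spike-ins no member passed it toward fetal liver (3.58% of all genes did), and 1, the bound of Psma8, passed it toward bone marrow (14.3% of all genes). Over all 46 measured members the median difference was 0.32 (quartiles 0.11 and 0.48), beside 0.11 for all genes (quartiles -0.29 and 0.44). The median over members was 0.17 after quantile normalization and 0.19 under normexp background correction.

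**Figure D1:**
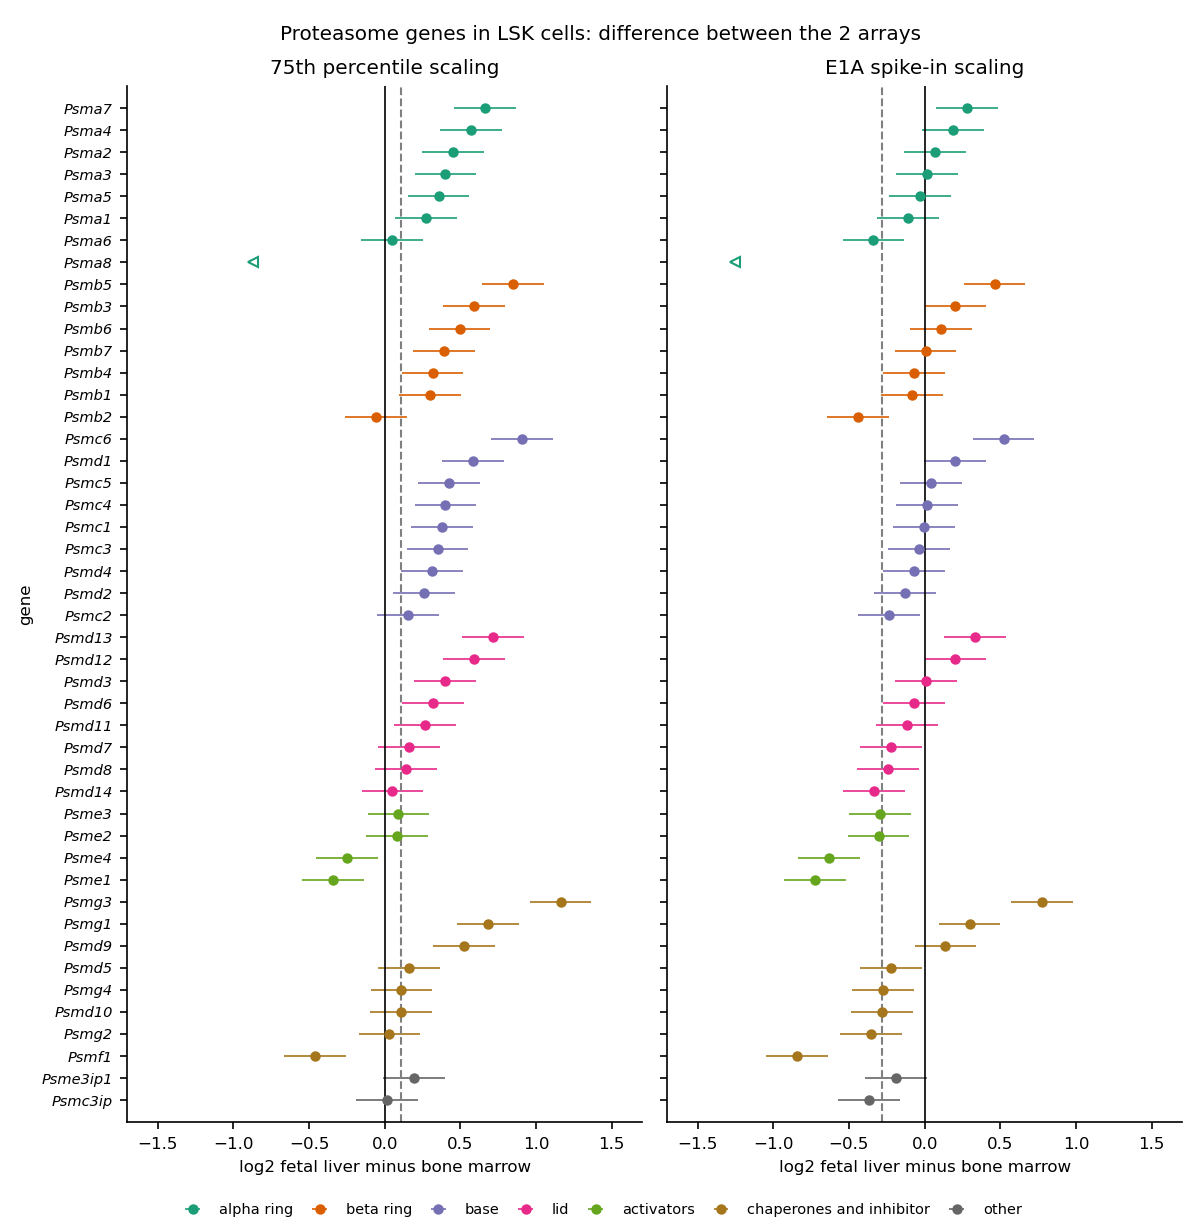
Difference of each measured proteasome gene (log2, fetal liver minus bone marrow), by class, after 75th percentile scaling (left) and E1A spike-in scaling (right). Bars are the technical error of the image software, the open triangle is the bound for Psma8, the solid line is 0 and the dashed line is the median of all genes (0.11 left, -0.28 right). Most core, base and lid genes lie right of the dashed line on both sides, and Psme1, Psme4 and Psmf1 lie left of it.

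The alpha ring forms the outer gates of the core. Its 8 genes had a median difference of 0.38, and -0.01 by the spike-ins. Psma7 was highest, with signals of 33933 (bone marrow) and 40301 (fetal liver), or 7.57 and 8.23 on the scaled log2 axis, which differ by 0.66 ± 0.20 (0.28 by the spike-ins). Fetal liver was thus the brighter array for Psma7 even before scaling. Psma4 followed at 0.57 ± 0.20, and its other probe gave 0.64. Psma2, Psma3, Psma5 and Psma1 lay between 0.45 and 0.27, and of these Psma5 (0.36) and Psma1 (0.27) were negative by the spike-ins, at -0.03 and -0.11. Psma6 had signals of 11448 and 8860 and differed by 0.05 ± 0.20, within the technical error, and by -0.34 on the spike-in scale. Psma8 encodes an alpha subunit of the testis. It was dim, with a bone marrow signal of 23.9 and a fetal liver signal of 7.87, the latter not well above background, which gives at least 1.83-fold more signal in bone marrow. This bound rests on the background setting, since under normexp background correction the difference of Psma8 was -0.07.

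The beta ring carries the catalytic sites. Its 7 measured genes had a median of 0.39, and 0.01 by the spike-ins. Psmb5, which holds the chymotrypsin-like site, led with signals of 62685 (bone marrow) and 84437 (fetal liver), a difference of 0.85 ± 0.20 (1.80-fold), and 0.46 by the spike-ins. Its other probe gave 0.87, so both probes placed fetal liver higher. Psmb6 (caspase-like site) had signals of 44442 and 46910, a difference of 0.49 ± 0.20, and Psmb7 (trypsin-like site) had 4299 and 4223, a difference of 0.39 ± 0.20. Both were near 0 by the spike-ins, at 0.11 and 0.01. The noncatalytic subunits Psmb3, Psmb4 and Psmb1 differed by 0.59, 0.32 and 0.30, and by 0.20, -0.07 and -0.08 on the spike-in scale. Psmb2, also noncatalytic, was the 1 core gene measured on both arrays with a negative difference, at signals of 1790 and 1290 (-0.06 ± 0.20, -0.44 by the spike-ins). Psmb11, the subunit of the thymic cortex, had signals of 4.73 and 2.17, dim on both arrays. Psma5, Psmb5, Psmb6 and Psmb7 have pseudogene copies, and how far those share probe signal is unknown.

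The base holds the 6 ATPases Psmc1 to Psmc6, the scaffold subunits Psmd1 and Psmd2 and the ubiquitin receptor Psmd4. All 9 had positive differences, with a median of 0.38, and 4 of the 9 remained positive by the spike-ins (median -0.01). Psmc6 had signals of 1621 (bone marrow) and 2276 (fetal liver), a difference of 0.91 ± 0.20 (1.87-fold, 0.52 by the spike-ins). Psmd1 was next at 0.58 ± 0.20. The other ATPases lay in a narrow range, Psmc5 at 0.43, Psmc4 at 0.40, Psmc1 at 0.38 and Psmc3 at 0.35, closer to each other than the technical error of any one. By the spike-ins Psmc5 and Psmc4 were at 0.04 and 0.02, and Psmc1 and Psmc3 at -0.01 and -0.04. Psmc2 was lowest, with signals of 10795 and 8981, a difference of 0.15 ± 0.20 (-0.23 by the spike-ins), and its other probe gave 0.37. Psmd2 and Psmd4 differed by 0.26 and 0.31, and by -0.13 and -0.07 on the spike-in scale.

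The lid docks on the base and carries the deubiquitinase Psmd14. Its 8 genes were all positive, with a median of 0.29 (-0.09 by the spike-ins, with 3 of 8 positive). Psmd13, a structural subunit, had signals of 7204 and 8863, a difference of 0.72 ± 0.20 (0.33 by the spike-ins), and Psmd12 differed by 0.59, with a dimmer probe at 0.13. Psmd3, Psmd6 and Psmd11 lay at 0.40, 0.32 and 0.27, and at 0.01, -0.07 and -0.12 by the spike-ins. Psmd7, the partner of Psmd14, and Psmd8 were at 0.16 and 0.14, within the technical error, and at -0.22 and -0.24 by the spike-ins. Psmd14 itself was lowest, with signals of 1086 (bone marrow) and 843 (fetal liver), a difference of 0.05 ± 0.20 (-0.33 by the spike-ins).

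**Figure D2:**
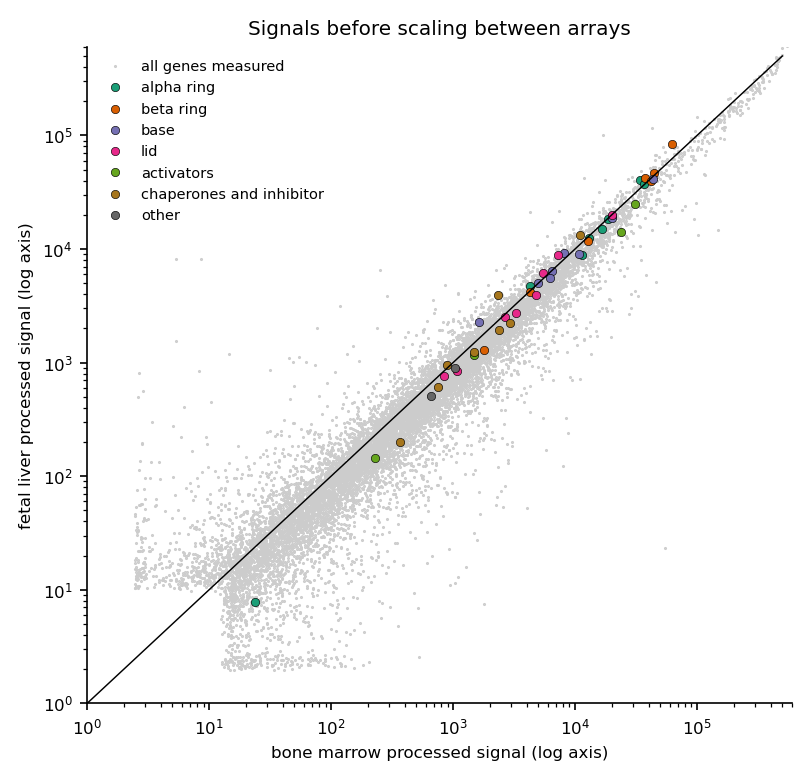
Processed signal of every measured gene (grey) and of the proteasome genes (coloured by class) on the bone marrow (x) and fetal liver (y) arrays, both log axes, before any scaling between arrays; the line marks equal signal. Psmb5 lies above the line at 62685 and 84437, and Psme1 below it at 23988 and 14202.

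The activators did not share the positive differences of the particles they dock on. Their median was -0.08, and all 4 were negative by the spike-ins (median -0.47). The sign of the percentile median rests on the choice of probe, since it was 0.04 with the mean over probes and -0.01 with probes taken separately. Psme1, the alpha subunit of PA28, was read by 10 spots on the bone marrow array, from 23360 to 25228, and by 9 on the fetal liver array, from 13695 to 14683. On the scaled log2 axis the spots ranged from 7.03 to 7.14 in bone marrow and from 6.68 to 6.78 in fetal liver. They repeat 1 probe on 1 array each, so they show precision within an array and do not replicate a group. The difference of Psme1 was -0.34 ± 0.20, or -0.72 by the spike-ins. Psme2, the beta subunit of the same ring, had signals of 31145 and 24676 and differed by 0.08 ± 0.20 (-0.30 by the spike-ins), with its dimmer probe at -0.09. Psme3, the nuclear activator PA28 gamma, had signals of 1475 and 1177 and differed by 0.09 ± 0.20 (-0.29 by the spike-ins). Psme4, the activator PA200, had signals of 229 and 144, a difference of -0.25 ± 0.21, but its dimmer probe gave 0.46, so its direction depends on the probe.

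Genes for assembly and inhibition ranged from -0.46 to 1.16 with a median of 0.14 (-0.25 by the spike-ins). Psmg3, part of the chaperone pair that builds the alpha ring, was the 1 member at least 2-fold different. Its signals were 2344 (bone marrow) and 3928 (fetal liver), a difference of 1.16 ± 0.20 (2.24-fold), and 0.78 by the spike-ins, which is under 2-fold. Its partner Psmg4 did not share this, at signals of 2398 and 1939 and a difference of 0.11 ± 0.20 (-0.27 by the spike-ins). In the other chaperone pair of the alpha ring, Psmg1 differed by 0.68 ± 0.20 by its brighter probe and 0.69 by its other probe, and Psmg2 by 0.03 ± 0.20 (-0.35 by the spike-ins). Among the chaperones of the base, Psmd9 was at 0.52 (dimmer probe 0.01), Psmd5 at 0.16 and Psmd10 at 0.11 (dimmer probe 0.66). By the spike-ins these 3 were at 0.14, -0.22 and -0.28. Psmf1, the inhibitor PI31, went the other way with signals of 367 and 200, a difference of -0.46 ± 0.21 and -0.84 by the spike-ins. Of the 2 other genes that the name pattern takes, Psmc3ip differed by 0.02 and Psme3ip1 by 0.19, and by -0.37 and -0.19 on the spike-in scale.

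Separate probes of a gene gave a check that is independent of the choice of probe. Of the 11 members that had several probes above background, 7 showed probes within 0.25 of each other, and the median gap was 0.18. Probes of Psme2 and Psme4 disagreed in sign. A gap is taken between 2 differences, and its technical error is near 0.29. The gaps of Psmd10 (0.55), Psmd9 (0.51), Psmd12 (0.46) and Psme4 (0.70) exceeded that error, and the gap of Psmc2 (0.22) did not. The leading genes Psmb5, Psmg1 and Psma4 had gaps of 0.02, 0.01 and 0.07. Psmg3, Psmc6 and Psmd13 had 1 probe each.

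At the smaller size of 1.5-fold, 8 members were past the limit toward fetal liver and 1 toward bone marrow, where the shares of all genes were 17.6% and 14.9%. The 8 were Psmg3, Psmc6, Psmb5, Psmd13, Psmg1, Psma7, Psmb3 and Psmd12. Psmb3 and Psmd12 were just inside that size, each at 1.504-fold, and Psmd1 was just outside at 1.499-fold. The 1 gene toward bone marrow was the dim Psma8. The count of members past 1.5-fold toward fetal liver, 8 of 46, is near the share of all genes. By the spike-ins 1 member, Psmg3, was past 1.5-fold toward fetal liver, and 4 (Psma8, Psmf1, Psme1, Psme4) toward bone marrow. Of all 13385 measured genes 950 and 3966 were past it on that scale.

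The SD of the differences was 0.22 over the 17 regulatory particle genes, 0.40 over the 15 measured core particle genes (the Psma8 bound included) and 0.89 over all genes, with the technical error at 0.20. Among the 4537 genes with a mean signal of at least 1000 (a limit chosen after the values were seen), the median was 0.16, the SD 0.74 and the positive share 64.4%. Of the 46 measured members 37 pass that limit. Mitochondrial ribosomal protein genes gave a median of 0.42 (0.04 by the spike-ins, SD 0.29) and cytosolic ribosomal protein genes 0.19 (-0.19, SD 0.34). Both had a wider spread than the regulatory particle. The SD of the core leans on the bound of the dim Psma8 (-0.87), and the beta ring, which does not hold that gene, had an SD of 0.28. No order of spread against the core is therefore drawn. By their medians the particle genes (0.37 and -0.02 over 32, SD 0.31) lay between these 2 families, which were chosen for comparison after the values were seen. No test separates them.

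**Figure D3:**
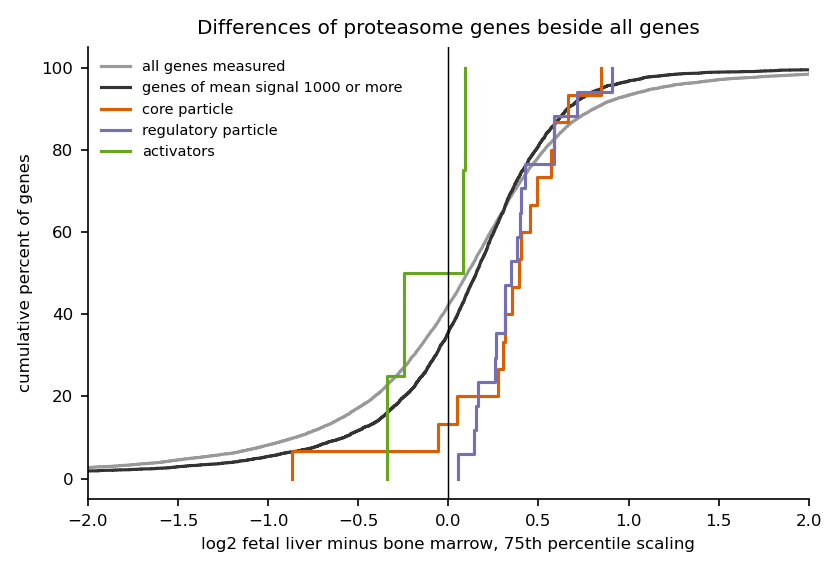
Cumulative percent of genes (y) by difference (x, log2, fetal liver minus bone marrow, 75th percentile scaling) for all measured genes, for genes of mean signal 1000 or more, and for core particle, regulatory particle and activator genes. The particle curves rise steeply around their medians of 0.39 and 0.35, where they lie right of the curves of all genes and of bright genes and meet them near the top, and the curve of the 4 activators ends at 0.09.

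Each catalytic position of the core can be filled by either of 2 genes, and at each the pair differed in opposite directions on the percentile scale. Psmb8, Psmb9 and Psmb10, the interferon-inducible subunits that replace Psmb5, Psmb6 and Psmb7, were higher in bone marrow. Psmb8 had signals of 15754 (bone marrow) and 5271 (fetal liver), a difference of -1.16 ± 0.20, so the difference of Psmb5 exceeded that of Psmb8 by 2.01 ± 0.29 on the log2 scale. Psmb9 had signals of 15928 and 4567, a difference of -1.39 ± 0.20, 1.88 ± 0.29 below that of Psmb6. Psmb10 had signals of 46302 and 24761, a difference of -0.49 ± 0.20, 0.88 ± 0.29 below that of Psmb7. These gaps are free of the scaling between arrays, because it shifts both genes of a pair alike. As ratios they mean that the constitutive subunit gained 4.03-fold, 3.68-fold and 1.84-fold on its counterpart in fetal liver. Under normexp background correction the gaps were 1.84, 1.83 and 0.82.

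Interferon-stimulated genes were lower in fetal liver, as the immunoproteasome genes were. Of 18 listed genes 16 were measured, and all 16 were lower in fetal liver, with a median of -1.46 and 11 at least 2-fold, a size that 8.17% of all genes passed toward bone marrow. Ifit1 (-0.23 ± 0.24) and Stat2 (-0.03 ± 0.20) were within the technical error, and Ifit1 was at 0.07 under normexp. Isg15 (-0.73), Oas1a (-0.81) and Ifit2 (-0.55) were also under 2-fold. Ifit3, dim in fetal liver, had a bound of -2.44 and was at -0.77 under normexp. The 17 listed genes with a probe summed to 117639 (bone marrow) and 27302 (fetal liver), of which B2m alone gave 66302 and 14080. Irf1, an interferon-induced transcription factor known to act on Psmb9, went from 13229 to 2281 (-2.12 ± 0.20). Nlrc5, the class I transactivator, was at -3.79 ± 0.22, and at -2.58 under normexp. The PA28 genes Psme1 and Psme2, at -0.34 and 0.08, stood nearer 0 than the median of this list, though Psme1 was further from 0 than Ifit1 and Stat2, and the part of interferon signalling in them was not tested.

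**Figure D4:**
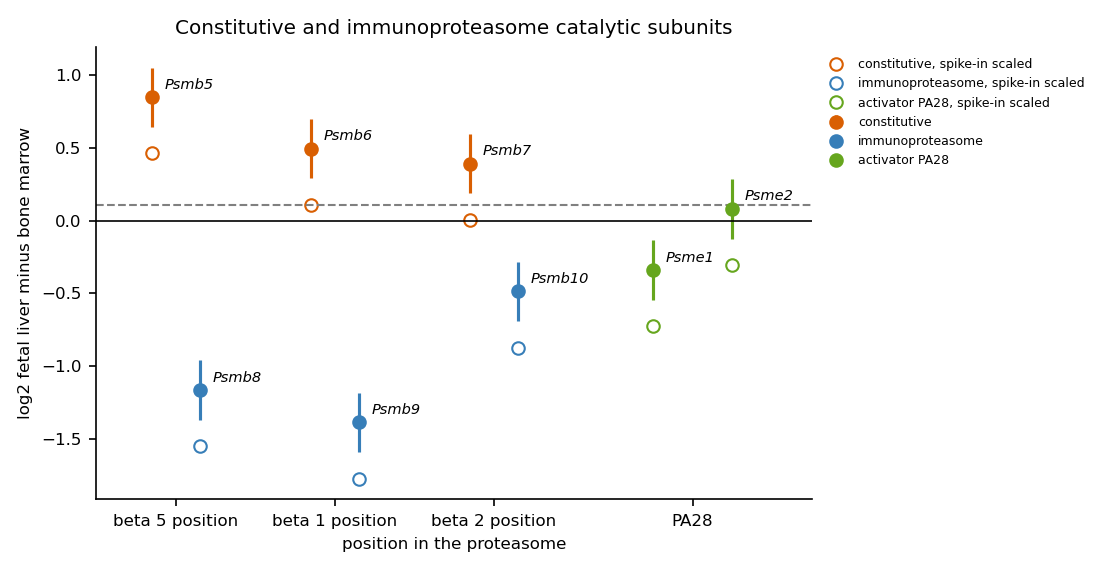
Differences (y, log2, fetal liver minus bone marrow) of the constitutive and immunoproteasome genes at each catalytic position, and of the PA28 genes, with filled points for 75th percentile scaling (bars, technical error) and open points for spike-in scaling; the dashed line is the median of all genes, 0.11. At each position the constitutive gene is above 0 and its counterpart below 0 on the percentile scale, Psmb5 at 0.85 and Psmb8 at -1.16.

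Other genes of the ubiquitin-proteasome pathway were taken from a list of 38, of which 37 had a probe, all above background on both arrays. Their median was 0.16, with 24 positive and 13 negative, and -0.23 by the spike-ins, with 11 positive and 26 negative. Of all measured genes 57.8% were positive, and 28.7% by the spike-ins, so the sign counts of the list are near that background. The same shares stand beside the counts of the smaller lists that follow. The 2-fold limit was passed by 1 toward fetal liver and by 3 toward bone marrow, where the shares of all genes were 6.73% and 8.17%, so neither count stands above that background. Of 7 further subunits and assembly factors, 5 were positive (median 0.25), and 1 of 7 by the spike-ins (median -0.14). Sem1, a lid subunit, differed by 0.49 (0.10 by the spike-ins). Pomp, the chaperone that matures the core, differed by 0.36 (-0.02) with a dimmer probe at 0.01, and Adrm1, a ubiquitin receptor of the base, by 0.28 (-0.11). Txnl1 was at 0.25 (-0.14), Akirin2 at 0.01 (-0.38), Ecpas at -0.07 and Fbxo7 at -0.60 ± 0.20. The 4 proteasome-bound enzymes, which trim or extend ubiquitin chains, were all positive (median 0.66), with 3 of 4 positive by the spike-ins, led by the deubiquitinase Usp14 with signals of 4433 and 6384 (0.94 ± 0.20, 0.56 by the spike-ins).

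Among genes that encode ubiquitin, Ubb differed by -0.41 ± 0.20 by its brighter probe and Rps27a, which encodes a fusion with a ribosomal protein, by 0.43. Of the shuttle and extraction genes, the segregase Vcp differed by 0.43, and Zfand2a, a stress-induced zinc finger protein, by -1.52 ± 0.20, with signals of 1507 and 394.

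Among the control genes, Nfe2l1 was dim, with signals of 30.6 and 31.5 and a difference of 0.46 ± 0.28 (0.07 by the spike-ins). Ngly1, the glycanase that processes the Nfe2l1 protein, was the 1 gene past 2-fold toward fetal liver, from signals of 25.5 and 48.7 (1.35 ± 0.26), and it was under 2-fold by the spike-ins (0.97) and under normexp (0.64). The small Maf proteins, DNA-binding partners of Nfe2l1, were higher in bone marrow, with Maff at -2.36 ± 0.20, Mafk at -1.62 ± 0.20 and Mafg at -0.67 ± 0.20. The related factor Nfe2l2 was at -0.35 ± 0.20.

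**Figure D5:**
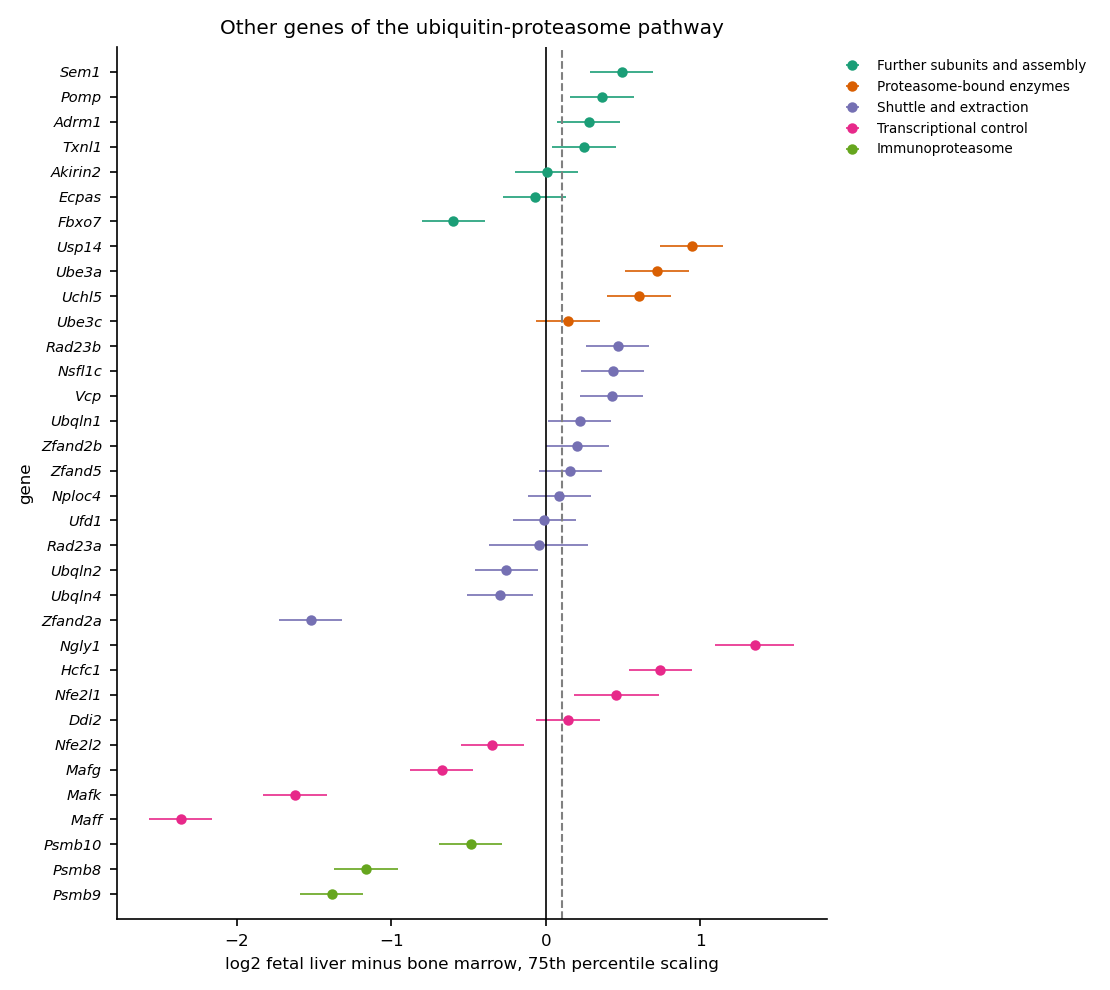
Differences (x, log2, fetal liver minus bone marrow, 75th percentile scaling) of pathway genes for further subunits and assembly, proteasome-bound enzymes, shuttling and extraction and transcriptional control, and of the immunoproteasome genes, with the technical error as bars, a solid line at 0 and a dashed line at the median of all genes, 0.11. Usp14 at 0.94 and Ngly1 at 1.35 are at the right, and Maff at -2.36 and Zfand2a at -1.52 at the left.

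The sorted cell type was checked on Kit and Ly6a (Sca-1), the genes of its positive sort markers, and on Cd34 and Flt3. All were above background on both arrays. Kit was at 0.01 (-0.38 by the spike-ins), Ly6a at -2.28, Cd34 at -0.13 and Flt3 at -0.89. Markers of other cells were read the same way. Of 7 hepatocyte markers, Alb, Ttr and Apoa1 were dim on both arrays, and Fgb was above background in bone marrow alone. Afp (signals of 1540 and 483), Apoa2 (871 and 769) and Serpina1a were above background on both. All 7, dim ones included, summed to 2486 and 1277. Of 4 B cell markers 1, Cd79b, was above background, with signals of 4030 and 3974, and Cd79a and Ms4a1 were dim on both arrays. Of 7 macrophage markers 4 were above background on each array, though not the same 4, and all 7, dim ones included, summed to 131 and 87.4. Of 5 T and NK cell markers 4 were above background in bone marrow and 3 in fetal liver. All 5, dim ones included, summed to 12752 and 2594, of which Nkg7 alone gave 11792 and 1629. Erythroid markers summed to 17746 (bone marrow) and 102777 (fetal liver), of which Hbb-bt alone gave 16971 and 101150. Of these markers 5 of 5 measured genes were positive, where 57.8% of all measured genes were. Klf1 had low signals (16.6 and 20.0), and Alas2 was dim in bone marrow. Neutrophil markers summed to 24109 and 14799, with 4 of 7 past 2-fold toward bone marrow, a size that 8.17% of all genes passed. S100a8 went the other way at 0.15 ± 0.20, within the technical error, and was at -0.23 by the spike-ins. In sorted populations more of a cell type and more RNA per cell cannot be told apart, and the part of these cells in the proteasome values was not tested.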

How the data were processed

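Each group was hybridised to 1 Agilent single-colour array. Per the file headers, the deposited intensity values come from Agilent Feature Extraction 10.7.1.1, which subtracted background and detrended each array without scaling between arrays. The other columns used were the deposited flags of each spot. The authors' deposited value table gives each probe a linear ratio, whose scaling is not described by any label or header.

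Outlier spots (137 and 122) were left out and repeated spots averaged. Signals were set to the 75th percentile of each array (178.9 in bone marrow, 134.0 in fetal liver) and taken to log2. Probes were named by accession through the RefSeq table (GRCm38.p6, names only, since the array design uses another build). Of 55664 probes 27226 were named. A gene took its probe of highest mean signal and counted as measured when well above background on at least 1 array (47.4% and 46.4% of probes were). Where 1 array was dim, the bright value was compared with whichever was larger, the dim value or the lowest signal well above background (12.4 and 9.82). No spot was saturated. No test was run, with 1 array a group, and array number limits the precision. Members with both signals in the text are those at the ends of each class, all activators and the inhibitor, those past 2-fold, dim members and those whose probes disagree, plus neighbours chosen after their values were seen. The calculation of differences was tested on simulated data. Some listed genes are counted in their lists and not reported by name here. Members and lists were chosen with earlier results of these data known. Spike-in scaling used the mean log2 signal of the E1A probes. Normexp used limma 3.58.1 with an offset of 50 on median signals, since the files hold no mean spot signal.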

Additional observations from a re-analysis of the deposited data

How the results depend on the processing

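No paired analysis was possible because each group has 1 array, and no array could be left out. E1A spike-in scaling changed most. It moved the median of all members to -0.070, of the alpha ring to -0.0064, beta ring 0.0058, base -0.0056, lid -0.094, activators -0.47 and chaperones with the inhibitor -0.25. It left 18 positive and 28 negative differences, and 0 members past 2-fold toward fetal liver and 1, Psma8, toward bone marrow. Scaling by the median of the spike-ins, added after seeing the data, gave -0.017, 0.047, 0.059, 0.048, -0.040, -0.42 and -0.20 in that order, with 21 positive, 25 negative, 0 and 1. Negative differences numbered 5 under the main setting, 10 with the percentile taken over detected probes, 10 after quantile normalization and 11 under normexp. Without the filter on dim probes 1 member, Psma8, passed 2-fold toward bone marrow. At 1.5-fold the counts were 8 and 1 on the percentile scale, and 1 and 4 by the spike-ins. Quantile normalization and normexp lowered the median of all members to 0.17 and 0.19, of the alpha ring to 0.20 under both, of the base to 0.21 and 0.24, of the lid to 0.20 and 0.15, of chaperones with the inhibitor to 0.062 and 0.078, and of the activators to -0.17 and -0.11. With the percentile over detected probes the last 2 were at 0.052 and -0.17. Under normexp Psmb5 was at 0.55, Psmc6 at 0.60 and Psma8 at -0.07. Median scaling, the authors' value table, the stricter filter, the mean over probes and separate probes left every class median within the technical error of its main value. The activator median nevertheless changed sign to 0.042 with the mean over probes. The authors' value table gave almost the same differences as the main setting, so it is not a separate check. Of 45 members on both arrays, 18 were positive and 4 (Psmb2, Psme1, Psme4, Psmf1) negative under every scaling and background setting, and 23 changed sign. The choice of probe is not among these settings. Psme4 was at 0.10 with the mean over probes and at 0.46 by its dimmer probe. The shares of all genes that keep their sign are not given here, so no reading is drawn from these counts. The mean signal of the 46 measured members had a median of 5883, where the lowest signals well above background were 12.4 and 9.82, and low signal limits Psma8 and Psmb11.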
